A study of Mus musculus with 4 samples.

Results

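The genes described here encode 10 proteins that shape microtubules and growth cones in young neurons: Map2, Mapt, Map1a, Map1b, Dcx, Dclk1, Stmn1, Stmn2, Stmn3 and Gap43. They were taken by symbol from the 49997 gene symbols of the deposited raw count tables, and all 10 were found. The libraries come from iMOP cells, a wild-type immortalized mouse line of multipotent otic (inner ear) progenitors. Proliferating iMOP cells grew in DMEM/F12 with B27, carbenicillin and basic FGF at 20 ng/ml. Neurons derived from the same line grew in Neurobasal medium with N21, L-glutamine and 1 µM K03861, which blocks the kinase CDK2. Each group has 2 libraries, which the titles call biological replicates 1 and 2, and both replicate 2 libraries also carry the words set 2. All libraries are total RNA depleted of ribosomal RNA, and the 2 groups share a single cell line, so no value speaks to other lines.

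Microtubules in growing neurites are bundled and stabilized by structural microtubule-associated proteins, with MAP2 typical of dendrites and tau (Mapt) of axons. MAP1B is the early and MAP1A the late member of a second family. Doublecortin (Dcx) and doublecortin-like kinase 1 (Dclk1) bind the microtubule lattice in migrating and newly formed neurons, and stathmins sequester tubulin and promote microtubule disassembly. GAP-43 is a membrane protein of growth cones that is regarded as a marker of axon outgrowth.

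The total count per library was between 7446361 and 14484011, of which the 18S ribosomal row Rn18s-rs5 took 53.3% to 76.1%, so 2595578 to 3850766 counts were left for all other genes. The 18S share split by replicate number, at 53.3% (proliferating) and 59.4% (neurons) in replicate 1 and 75.0% and 76.1% in replicate 2. Genes with at least 1 count numbered 21605 and 21637 in replicate 1, and 17762 and 20012 in replicate 2, in the same order. Proliferating replicate 2 stood apart: its log2 CPM correlated with that of proliferating replicate 1 at r = 0.825 across 12783 genes, whereas proliferating replicate 1 and neuron replicate 1 correlated at 0.918. The summed level of 10 neuron markers was 73.2 and 281.6 CPM (the count scaled to library size with edgeR's TMM factors) in proliferating replicates 1 and 2, and 85.6 and 237.4 CPM in neuron replicates 1 and 2. Tubb3 alone gave 193.0 of the 281.6 CPM in proliferating replicate 2. Elavl4, which encodes a neuronal RNA-binding protein, followed the group, with 92 and 90 counts in proliferating cells and 211 and 373 in neurons (log2 fold change 1.5, SE 0.565; edgeR adjusted p-value 0.9998). It was the single one of the 9 tested neuron markers with an unadjusted p-value under 0.05, and the neurofilament gene Nefm had 0 or 1 count in every library. The glial marker Gfap had 181 and 89 counts in proliferating cells and 1 and 2 in neurons. Its edgeR adjusted p-value was 0.11 without and 0.0158 with the replicate number as a block. With the block, 0.0235% of all tested genes were called lower. Gfap passed the filter on low counts through the proliferating libraries alone. Of the other tested glial markers, Fabp7 had 272 and 362 counts in proliferating cells against 211 and 9 in neurons. Aqp4 had 356 and 2 against 31 and 5. The summed level of 8 proliferation markers was 338.5 and 95.8 CPM in the proliferating replicates, and 419.8 and 258.1 CPM in the neuron replicates, so the library labelled neurons was the higher one in each pair. Log2 fold changes were above 0 for 8 of the 8, against 6651 of all 12783 tested genes. Both pairs were higher in neurons for 6 of the 8, against 28.8% of all tested genes. None of the 8 was higher in neurons without overlap, against 12.9% of all genes. An unadjusted edgeR p-value under 0.05 was reached by 0 of the 8, against 3.43% of all genes. With the replicate number as a block, 2 of the 8 reached it, against 6.18%. Of the sums, Top2a alone gave 166.7 and 21.9 CPM in the proliferating replicates, and 218.0 and 130.6 CPM in the neuron replicates. The group labels were kept as given. The otic genes Pax2 and Pax8 were at 0 in all libraries, while the progenitor gene Sox2 had 216 to 402 counts. In these bulk libraries, fewer cells of a type and less RNA per cell cannot be told apart. The part of cell composition in the values below was not tested.

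RefSeq promoter windows (GRCm38.p6) were found for 6 of the 10 genes. The 250 bases before the start site are shown for the gene with the most counts, Map1b (chr13:99516603-99516852, minus strand), and for the gene with the widest gap between the neuron libraries, Stmn3 (chr2:181314501-181314750, minus strand). Both are written 5′ to 3′, and capitals mark matches on either strand to CAGATG, an E-box of the kind bound by proneural factors, or to GGGCGG, the GC box.
Map1b: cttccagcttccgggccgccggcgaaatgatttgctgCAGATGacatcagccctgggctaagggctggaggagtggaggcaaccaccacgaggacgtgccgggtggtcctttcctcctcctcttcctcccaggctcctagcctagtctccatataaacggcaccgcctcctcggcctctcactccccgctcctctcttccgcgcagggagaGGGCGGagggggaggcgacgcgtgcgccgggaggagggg
Stmn3: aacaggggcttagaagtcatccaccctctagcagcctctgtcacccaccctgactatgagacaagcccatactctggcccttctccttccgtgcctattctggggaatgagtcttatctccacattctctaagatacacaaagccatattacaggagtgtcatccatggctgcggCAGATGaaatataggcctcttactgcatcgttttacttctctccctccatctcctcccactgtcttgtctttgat
The GC content was 66.4% for Map1b and 48.8% for Stmn3, against a median of 52.4% over all 32851 windows. CAGATG occurs in 14.4% of all such windows and GGGCGG in 32.7%, and another motif searched, the E-box CAGCTG, occurs in 13.0% and in neither of these. The windows of the other genes with any, Map2, Map1a, Dclk1 and Dcx, held no CAGATG match. GGGCGG matched in those of Map2 and Map1a and in none of Dclk1 or Dcx. A match describes letters and is no evidence of binding.

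Neuron libraries were set against proliferating ones to see which of these genes differ between the 2 groups as labelled. Map2 and Stmn1 were higher in neurons in both replicate pairs, by 1.21-fold to 1.52-fold, and Stmn2 was lower in both. The other 6 tested genes went in opposite directions in the replicate 1 pair and the replicate 2 pair. These directions are signs alone. Counting intervals of the ratio included 1 for Dcx and Stmn2 in the replicate 1 pair and for Stmn1 in the replicate 2 pair. Gap43 was at or near 0 throughout and did not pass the filter on low counts, which 9 of the 10 genes passed. In edgeR's quasi-likelihood test, with p-values adjusted over 12783 genes, 0 of these 9 genes were called higher and 0 lower in neurons. The background over all tested genes was 0.0% called in each direction. An unadjusted p-value under 0.05 was reached by 0 of the 9 genes, against 3.43% of all genes. DESeq2 called 0 of the 9 in either direction, against 0.0997% of the 12034 genes it adjusted called higher and 0.382% called lower. With the replicate number as a block, 0 of the 9 were called, against 0.0% of all genes called higher and 0.0235% called lower, and 0 of the 9 had an unadjusted p-value under 0.05, against 6.18% of all genes.

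The median log2 fold change of the 9 tested genes was 0.055, beside 0.024 for all tested genes, with 5 genes above 0 and 4 below. By pair, the median was -0.20 in replicate 1 and 0.61 in replicate 2, beside 0.0 and 0.067 for all genes. In the replicate 1 pair 3 of the 9 were higher in neurons, against 50% of all genes, and in the replicate 2 pair 7 of the 9 were, against 53.3%. Both pairs had the same direction for 3 genes. Counted by sign alone, opposite directions were found for 6 of the 9, against 45.7% of all tested genes. The gap between the group means exceeded both gaps between replicates for 1 of the 9 genes, Map2, against 15.8% of all tested genes. With 2 libraries against 2, an exact two-sided permutation test of a single gene cannot give a p-value under 0.333, so none was run.

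**Figure D1:**
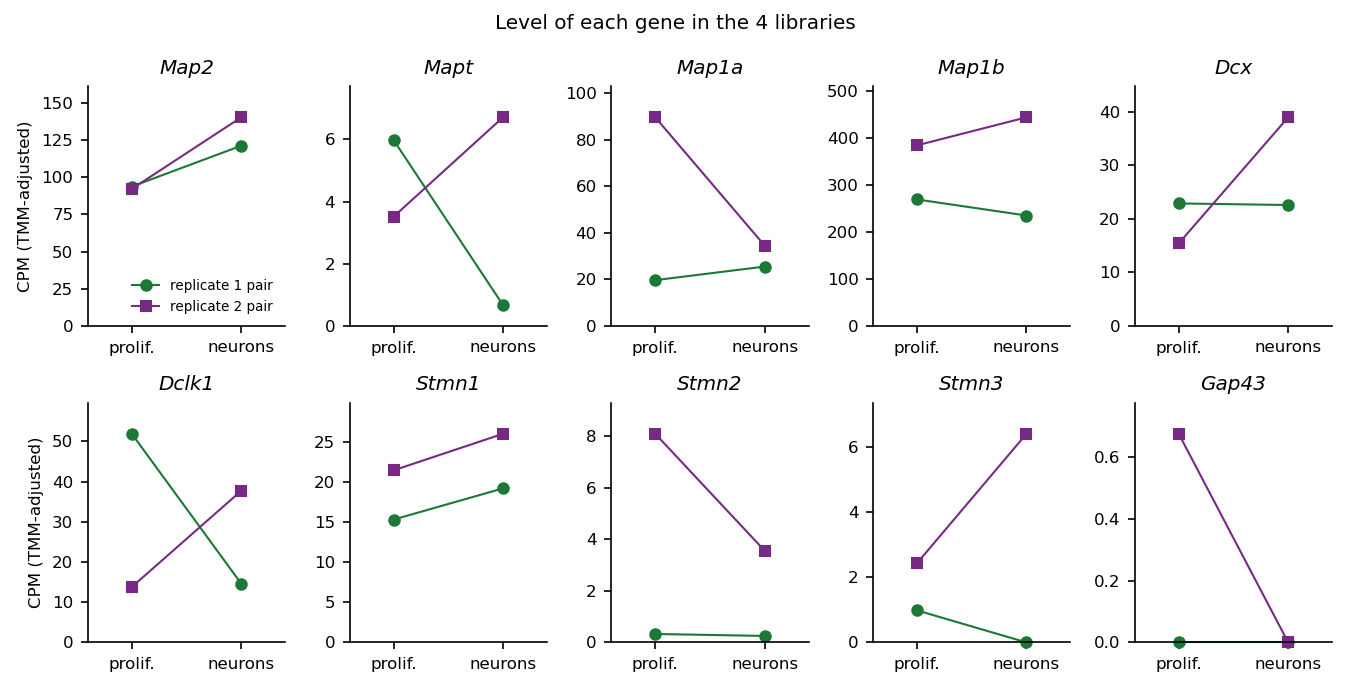
Level of each gene in CPM (TMM-adjusted, linear axes from 0) in the 4 libraries, with proliferating cells on the left and neurons on the right. Lines join libraries with the same replicate number (circles for replicate 1, squares for replicate 2); they run in opposite directions for Mapt, Map1a, Map1b, Dcx, Dclk1 and Stmn3, and both slope upwards for Map2 and Stmn1.

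Map2 (chr1:66175202-66442583, plus strand), the dendritic member of the structural MAPs, was counted 1143 and 682 times in proliferating replicates 1 and 2, against 1444 and 1379 times in neuron replicates 1 and 2. Pairs of values below follow the same order. Both neuron libraries were above both proliferating ones, and this was the single gene of the set whose groups did not overlap, against 12.9% of all tested genes with neurons higher. None of the other 8 tested genes was lower in neurons without overlap, against 14.5% of all genes. In CPM this was 92.9 ± 1.12 for the proliferating group and 130.7 ± 13.5 for the neuron group (SD, n = 2 each). The neuron to proliferating ratio was 1.29 in the replicate 1 pair (95% exact counting interval 1.20 to 1.4) and 1.52 in the replicate 2 pair (1.39 to 1.67). These intervals cover counting error only. The log2 fold change was 0.49 (SE 0.42, 95% interval -0.49 to 1.47) with an edgeR adjusted p-value of 0.9998. A 2-fold rise therefore lies inside the interval and so does no change. Scaled by library size alone, the estimate was 0.18, where the median of all genes was -0.27. On the log2(RPKM + 1) scale the Map2 estimate was 0.046, with Map2 at 0.177 to 0.413 RPKM, small beside the 1 added.

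Tau is the axonal counterpart of MAP2, and its gene Mapt (chr11:104229409-104332090, plus strand) was far rarer. Mapt was counted 73 and 26 times in proliferating libraries, against 8 and 66 times in neuron libraries. The lowest and the highest CPM were both in neurons, at 0.671 in replicate 1 and 6.71 in replicate 2. Its ratio of neurons to proliferating cells was 0.112 in the replicate 1 pair (counting interval 0.0467 to 0.233) and 1.91 in the replicate 2 pair (1.20 to 3.14). The pairs thus disagreed in direction beyond counting error. The log2 fold change over all 4 libraries was -0.38 (SE 0.93, 95% interval -2.56 to 1.79; edgeR adjusted p-value 0.9998). It turned to 0.0073 without proliferating replicate 1 and to 0.46 without neuron replicate 1.

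Map1b (chr13:99421464-99516602, minus strand) encodes the MAP of early neurite growth and had the most counts of the set in every library, without regard to gene length. It was counted 3285 and 2846 times in proliferating libraries, against 2800 and 4367 times in neuron libraries, which was 53.5% to 60.9% of all counts of the 10 genes. In CPM this was 326.7 ± 81.3 for the proliferating group and 339.4 ± 148.0 for the neuron group (SD, n = 2 each). Both replicate 2 libraries were above both replicate 1 libraries, and the groups overlapped. The log2 fold change was 0.055 (SE 0.47, 95% interval -1.05 to 1.16, edgeR adjusted p-value 0.9998). With library size alone as the scaling it was -0.26, where the median of all genes was -0.27. The value of Map1b was also below 0 without proliferating replicate 1 (-0.22) and without neuron replicate 2 (-0.48).

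Map1a (chr2:121289590-121310832, plus strand), the MAP of mature neurites, was counted 240 and 664 times in proliferating libraries, against 304 and 339 times in neuron libraries. Proliferating replicate 2 was the high library at 89.6 CPM, and the other 3 lay between 19.7 and 34.5 CPM. The ratio of neurons to proliferating cells was 1.30 in the replicate 1 pair (counting interval 1.09 to 1.54) and 0.384 in the replicate 2 pair (0.336 to 0.439). The log2 fold change was -0.86 (SE 0.71, 95% interval -2.52 to 0.79; edgeR adjusted p-value 0.9998). Without proliferating replicate 2 it was 0.63, so its sign rested on that library. The 3′ end of the gene overlaps Ppip5k1 on the other strand, which had 17 to 47 counts. The libraries are stranded, but whether the counting used strand is not stated, so reads of the overlap cannot be told apart. Gm14978 also overlaps Map1a on the other strand. Genes on the other strand are annotated within the spans of Map2, Mapt and Dclk1 too, so the same limit holds for them.

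**Figure D2:**
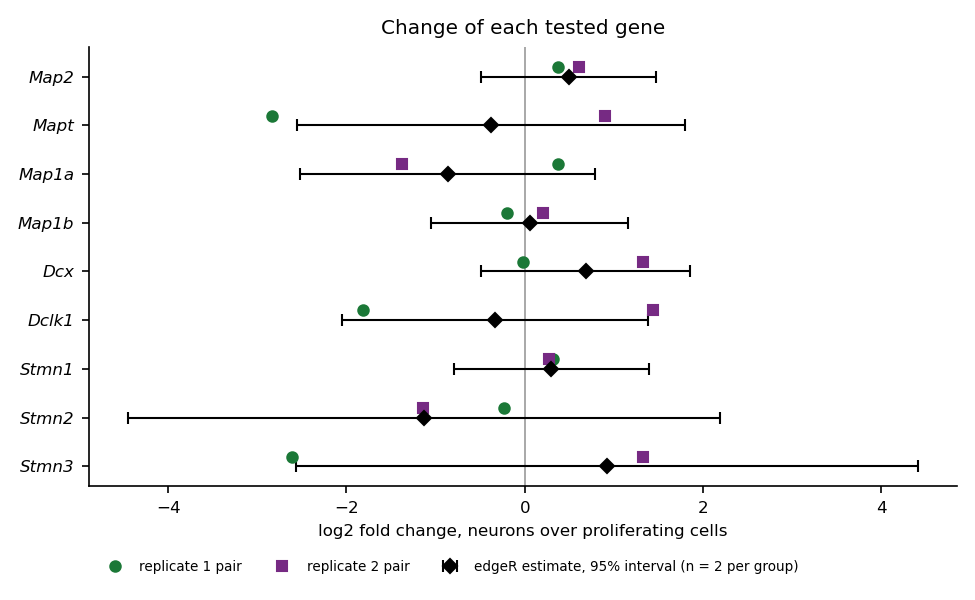
Log2 fold change of neurons over proliferating cells for the 9 tested genes. Diamonds with bars are edgeR estimates with 95% intervals (n = 2 per group), all of which include 0; circles and squares are the replicate 1 and replicate 2 pairs (log2 CPM, prior count 2), which lie on opposite sides of 0 for 6 genes.

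Dcx (chrX:143855842-143933396, minus strand), the doublecortin gene and a marker of newly formed neurons, was counted 279 and 114 times in proliferating libraries, against 269 and 383 times in neuron libraries. Neuron replicate 2 was the high library at 38.9 CPM and proliferating replicate 2 the low one at 15.4 CPM, while both replicate 1 libraries were near 23 CPM. The ratio of neurons to proliferating cells was 0.987 in the replicate 1 pair (counting interval 0.832 to 1.17) and 2.53 in the replicate 2 pair (2.05 to 3.15). Its log2 fold change was 0.68 (SE 0.503, 95% interval -0.495 to 1.86; edgeR adjusted p-value 0.9998). The value was 0.29 with a correction for GC content, 0.24 without neuron replicate 2 and 0.992 without neuron replicate 1.

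Dclk1 (chr3:55242303-55539068, plus strand) encodes a kinase with a doublecortin-like microtubule-binding part. It was counted 633 and 102 times in proliferating libraries, against 174 and 371 times in neuron libraries. The proliferating replicates, at 51.9 and 13.8 CPM, spanned both neuron replicates, at 14.6 and 37.7 CPM. In the replicate 1 pair the ratio of neurons to proliferating cells was 0.281 (counting interval 0.237 to 0.333), and in the replicate 2 pair it was 2.74 (2.19 to 3.44). These opposite pairs gave a log2 fold change of -0.33 (SE 0.73, 95% interval -2.05 to 1.38; edgeR adjusted p-value 0.9998). It was 0.88 without proliferating replicate 1 and 0.17 without neuron replicate 1. Dclk1 is annotated with 2 start sites among the promoter windows, and counts per gene do not separate its long and short products.

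Stmn1 (chr4:134468320-134473843, plus strand) encodes stathmin, which is also abundant in dividing cells. It was counted 187 and 159 times in proliferating libraries, against 229 and 256 times in neuron libraries. Levels were 15.3, 21.5, 19.2 and 26.0 CPM in that order, so each neuron library was above the proliferating library of its own number while the groups overlapped. The ratio of neurons to proliferating cells was 1.25 in the replicate 1 pair (counting interval 1.03 to 1.53) and 1.21 in the replicate 2 pair (0.991 to 1.49). Of all tested genes, 28.8% were higher in neurons in both pairs. The log2 fold change was 0.2996 (SE 0.47, 95% interval -0.80 to 1.4; edgeR adjusted p-value 0.9998). The estimate was 0.05 with library size alone, where the median of all genes was -0.27. Leaving out proliferating replicate 1 gave 0.038 and leaving out neuron replicate 2 gave 0.062.

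Stmn2 (chr3:8509527-8561604, plus strand), the neuronal stathmin of growth cones also known as SCG10, separated the replicate numbers and not the groups. It had 4 and 60 counts in proliferating replicates 1 and 2, and 3 and 35 in neuron replicates 1 and 2. In the replicate 2 pair the ratio of neurons to proliferating cells was 0.439 (counting interval 0.281 to 0.677), and in the replicate 1 pair it was 0.768 (0.112 to 4.54), where the counts allow either direction. Lower values in neurons in both pairs were found for 25.5% of all tested genes. Its log2 fold change was -1.13 (SE 1.42, 95% interval -4.45 to 2.19; edgeR adjusted p-value 0.9998), and 2.50 without proliferating replicate 2. The neuron marker Tubb3, a neuronal tubulin, had a like split, counted 233 and 1430 times in proliferating libraries and 342 and 1026 times in neuron libraries.

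Stmn3 (chr2:181306459-181314500, minus strand), a neural stathmin known as SCLIP, was counted 12 and 18 times in proliferating libraries, against 0 and 63 times in neuron libraries. The neuron libraries were thus the lowest and the highest of the 4. In the replicate 2 pair neurons were 2.64-fold higher (counting interval 1.54 to 4.73). In the replicate 1 pair they were 3.91-fold lower, taking 3 counts as the limit that a count of 0 allows per library. The 12 counts were taken as exact there, so 3.91 is not a lower limit. The log2 fold change was 0.92 (SE 1.49, 95% interval -2.57 to 4.41; edgeR adjusted p-value 0.9998), and -0.31 with the replicate block.

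Gap43 (chr16:42248552-42340651, minus strand), the growth cone gene, was counted 5 times in proliferating replicate 2 and 0 times in the other 3 libraries, both neuron libraries among them. With the same limit of 3 counts in place of 0, neurons were 2.21-fold lower in the replicate 2 pair. The 5 counts were taken as exact there, so 2.21 is not a lower limit. In the replicate 1 pair no fold can be given. Gap43 was not tested, because it did not pass the filter on low counts. Another membrane protein gene of growth cones, Basp1, had 375 to 544 counts in the same libraries.

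Levels of different genes were compared per kilobase, since the genes differ in length. CPM was divided by a derived length, the length behind the deposited RPKM over the gene's number of RefSeq transcripts. This is the mean transcript length only if the RPKM length is the sum over those transcripts, which was not tested. The order over the 4 libraries was Map1b (28.0 CPM per kb), Stmn1 (19.3), Map2 (10.2), Dclk1 (4.36), Map1a (3.76), Dcx (2.74), Stmn3 (2.16), Stmn2 (1.61), Mapt (0.514) and Gap43 (0.129). With these lengths Map1b, Stmn1 and Map2 held ranks 1, 2 and 3 in each of the 4 libraries. Map1b and Stmn1 overlapped across libraries, at 19.8 to 37.4 and 14.5 to 24.6 CPM per kb, whereas the highest Map2 value, 12.8, was below the lowest of Stmn1. Dclk1, Map1a, Dcx, Stmn3 and Stmn2 overlapped and changed places between libraries: Map1a was at 1.75 to 7.96 and Stmn3 at 0.0 to 5.64 CPM per kb. The deposited RPKM gave another order, with Stmn1 first (mean 19.4), Map1b second (13.8) and Map2 only at rank 7 (0.314). The length behind the RPKM of Map2 was 371568 bases, for a gene with 34 RefSeq transcripts, against 1060 bases for Stmn1 with 1 transcript. With the exons of GENCODE merged per gene, the first 3 ranks of the means were Map1b, Stmn1 and Map2, at 21.0, 10.7 and 6.79 CPM per kb, and Dclk1 went from rank 4 to rank 7. With those lengths Map1b (14.8 to 28.0) and Stmn1 (7.97 to 13.5) did not overlap, while Map2 (5.6 to 8.52) and Stmn1 did, and Map1a (7.37) was above Map2 in proliferating replicate 2. Which neighbours in the order overlap therefore depended on the gene length used.

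Shares of counts between relatives within a library need no scaling between libraries. Map1a made up 6.81% of the counts of Map1a and Map1b together in proliferating replicate 1 (6.02 to 7.69, a 95% Wilson interval, as for the shares that follow) and 18.9% in proliferating replicate 2 (17.7 to 20.2). In neuron replicates 1 and 2 its share was 9.79% (8.80 to 10.9) and 7.20% (6.5 to 7.98), between the shares of the proliferating libraries. Dclk1 made up 69.4% of the counts of Dclk1 and Dcx in proliferating replicate 1 (66.3 to 72.3), and 47.2% in proliferating replicate 2 (40.7 to 53.9). The neuron shares of Dclk1 were 39.3% in replicate 1 (34.8 to 43.9) and 49.2% in replicate 2 (45.6 to 52.8), so the groups overlapped. Mapt held 0.551% of the counts of Mapt and Map2 in neuron replicate 1 (0.279 to 1.08), and 3.67% to 6.0% in the other 3 libraries.

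**Figure D3:**
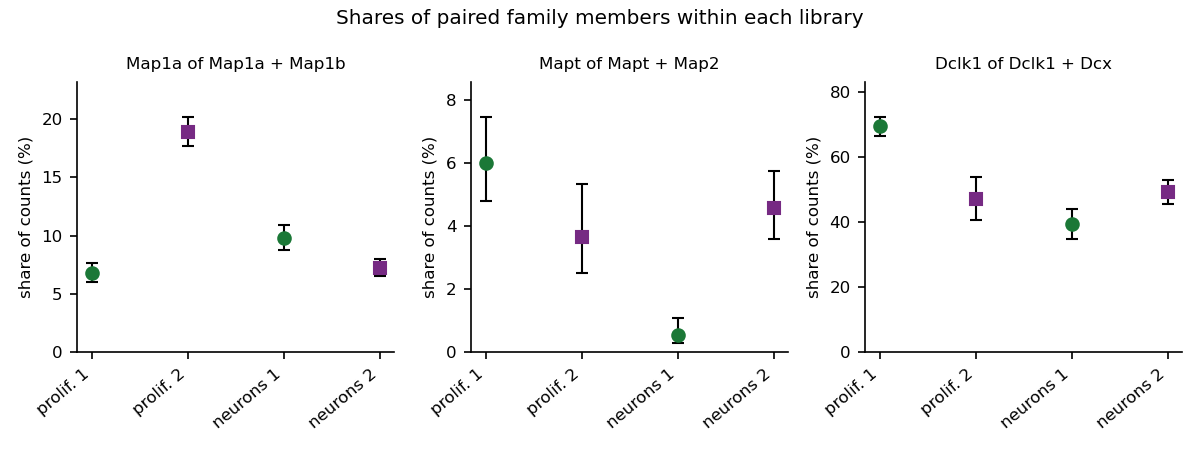
Share of counts (%) held by Map1a, Mapt and Dclk1 in the sum with their relative, in each library, with 95% Wilson intervals (counting error only; circles replicate 1, squares replicate 2; axes from 0). Proliferating replicate 2 is high for Map1a at 18.9%, neuron replicate 1 is low for Mapt at 0.551% and proliferating replicate 1 is high for Dclk1 at 69.4%.

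The replicate number was also tested, with the group kept as a term, because the titles set the replicate 2 libraries apart. Stmn2 was higher in replicate 2 by 4.21 on the log2 scale (SE 0.71), Stmn3 by 3.29 (SE 1.17) and Map1a by 1.31 (SE 0.52). The edgeR adjusted p-values were 0.178, 0.319 and 0.364, so none passed, and all genes gave 0.0% called higher and 0.0% lower in replicate 2. With 4 and 3 counts in the replicate 1 libraries, Stmn2 got through the filter on low counts by the replicate 2 libraries alone. Its excess in replicate 2 is therefore not independent of that filter. For Map2 the difference was 0.093 (SE 0.41) and for Dcx 0.12 (SE 0.48). What a set stands for is not stated in the sources used here.

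**Figure D4:**
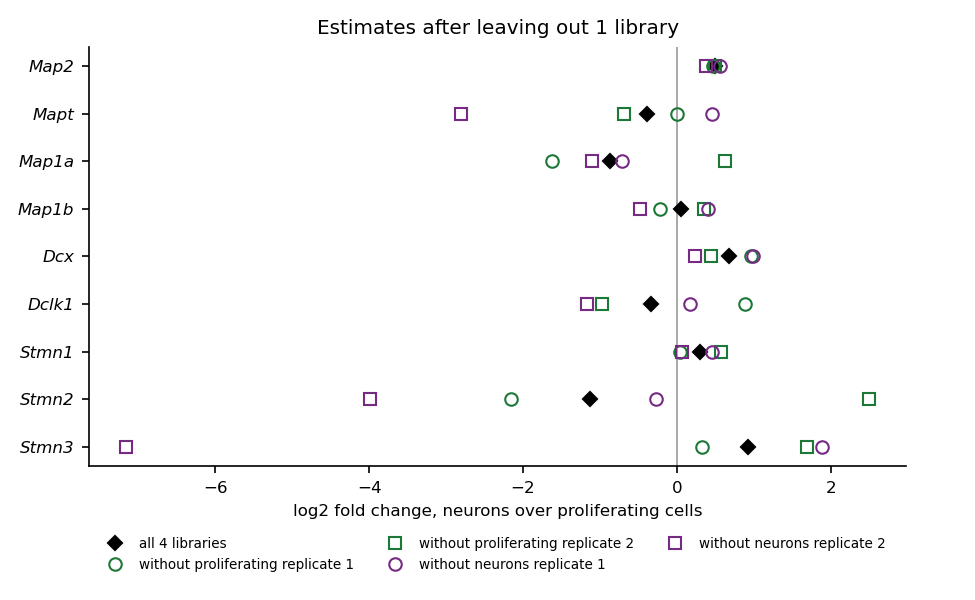
Log2 fold change of neurons over proliferating cells with all 4 libraries (diamonds) and after leaving out 1 library (open symbols; green for proliferating, purple for neurons; circles replicate 1, squares replicate 2). The sign held for Map2, Dcx and Stmn1 in all 4 cases and changed for the other 6 tested genes.

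Other genes of the same processes were read from 5 lists with 64 genes, of which 59 were tested. Of these, 0 were called higher and 0 lower by edgeR, with 28 estimates above 0 and 31 below and a median log2 fold change of -0.037. Nav3, a neuron navigator protein that binds microtubule tips, was the single gene of the 59 with an unadjusted p-value under 0.05, against 3.43% of all tested genes. It was counted 57 and 54 times in proliferating libraries, against 12 and 26 times in neuron libraries, a log2 fold change of -1.71 (SE 0.65; edgeR adjusted p-value 0.9998). The microtubule end proteins had 6 of 14 tested genes above 0 and a median of -0.13. The relatives of Nav3 on that list, Nav1 and Nav2, had log2 fold changes of -0.89 (SE 0.81) and -1.26 (SE 0.89). With the replicate number as a block, 5 of the 59 had an unadjusted p-value under 0.05, against 6.18% of all genes, and 0 were called. These 5 were lower in neurons: Nav1 (-0.97), Nav2 (-1.22), Nav3 (-1.81), Clip2 (-1.48), which encodes a microtubule plus-end linker, and Map6 (-1.49), which encodes a stabilizer of cold-resistant microtubules.

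Growth cone proteins had 3 of 12 tested genes above 0 and a median of -0.16. Marcks, a membrane protein that binds actin, was counted 3017 and 1799 times in proliferating libraries, against 2840 and 2027 times in neuron libraries, a log2 fold change of -0.14 (SE 0.3995). Dpysl5, which encodes a collapsin response mediator, was counted 85 and 160 times in proliferating libraries, against 184 and 351 times in neuron libraries. Both of its pairs were higher in neurons, and the groups overlapped in CPM. The relatives of doublecortin, the stathmins and the MAPs had 4 of 8 tested genes above 0 and a median of -0.14. Stmn4, the fourth stathmin, was counted 19 and 5 times in proliferating libraries, against 1 and 8 times in neuron libraries and did not pass the filter.

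Motors and severing enzymes had 10 of 14 tested genes above 0, with a median of 0.35. Their median was -0.13 in the replicate 1 pair, with 5 of 14 higher in neurons, and 0.89 in the replicate 2 pair, with 13 of 14 higher. Katna1, the catalytic subunit of the severing enzyme katanin, was counted 59 and 22 times in proliferating libraries, against 93 and 65 times in neuron libraries (log2 fold change 0.87, SE 0.51). Kinases that phosphorylate MAPs, listed with the CDK5 activator gene Cdk5r1, had 5 of 11 tested genes above 0 and a median of -0.037. Among them Gsk3b, a tau kinase, was counted 1144 and 395 times in proliferating libraries, against 1763 and 954 times in neuron libraries. Its groups did not overlap and its log2 fold change was 0.73 (SE 0.496). Of the 59 tested genes of all lists, 7 were higher in neurons without overlap in CPM and 4 lower. The shares over all tested genes were 12.9% and 14.5%. The edgeR adjusted p-value was 0.9998 for Marcks, Katna1 and Gsk3b.

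**Figure D5:**
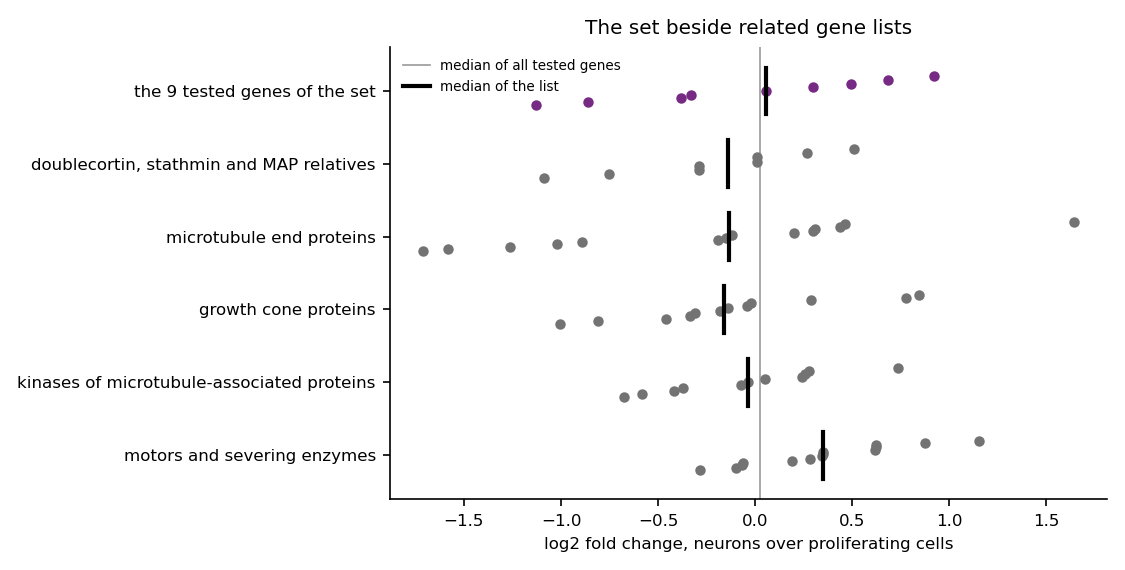
Log2 fold change of neurons over proliferating cells for each tested gene (points) of the set and of 5 related lists; black bars are list medians and the grey line is the median of all tested genes, 0.024. The medians lie between -0.16 and 0.35, with motors and severing enzymes the highest.

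Among the 9 tested genes, the profiles of Map2 and Stmn1 were nearest to each other over the 4 libraries, with a Euclidean distance of 0.434 between centred log2 CPM values. The nearest neighbour of Stmn2 was Map1a, at 2.28, and that of Stmn3 was Mapt, at 2.02. The median profile of the 9 genes was -0.26 and 0.12 in proliferating replicates 1 and 2 and -0.47 and 0.59 in neuron replicates 1 and 2, on the centred log2 scale. Of all other tested genes, Ctnnbl1 (distance 0.0517), Lrrc20 (0.0647) and Lrpap1 (0.0844) were closest to it. With 4 libraries and 12783 genes such likeness describes these libraries only.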

How the data were processed

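Total RNA of 4 samples was sequenced in stranded libraries, 2 of proliferating iMOP cells and 2 of neurons. The authors deposited raw counts and RPKM values per gene for each library. Per the submitters' processing notes the build is mm10, and HISAT2, SAMtools, featureCounts, DESeq2 and deepTools 3.4.3 are named without their roles. The annotation, the use of strand and the treatment of reads with several matches are not given in the sources used here. All 49997 symbols are in the RefSeq table of GRCm38.p6, the assembly named mm10, and coordinates come from it. The deposited RPKM is the count divided by the column total, 18S row included, and by 1 length per gene, which was recovered from both tables.

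Counts as deposited were tested in edgeR 4.0.16 (R 4.3.3): TMM factors, filterByExpr (minimum count 10, minimum total 15), glmQLFit and glmQLFTest on the group, two-sided, Benjamini-Hochberg over 12783 genes, threshold 0.05. The biological coefficient of variation was 0.456. SE is the log2 fold change divided by the square root of F, and 95% intervals use the total degrees of freedom. Within a pair, log2 CPM (prior count 2) was subtracted, or CPM was divided, with exact binomial counting intervals. PCR reads without molecular identifiers are not independent molecules, so intervals cover counting error only. The titles call the replicates biological, but nothing says that they were separate cultures, so p-values measure only the spread between these samples. Only the edgeR fits with and without the replicate block were tested on simulated counts, which held no difference between replicate numbers. The other methods were not simulated.

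Replicate numbers were taken as pairs because the titles give both replicate 2 libraries the words set 2. Deviations of same-numbered libraries from the group means correlated at r = 0.33. Alternatives were RLE factors, library size alone, the 18S row left out, no filter, a mean count of at least 50, DESeq2 1.42.0, limma 3.58.1 on log2(RPKM + 1) and log2(RPKM + 0.1) for genes of at least 0.1 RPKM in 2 libraries, the replicate block, and each library left out. Added after seeing the data were a GC correction (lowess, span 0.3, GC known for 90.7% of tested genes), the same with the block, the lengths for CPM per kb, and the test of the replicate number. The 10 genes, the lists and the marker sets were chosen with earlier results of these data known. Genes named are the 10, genes of the fixed lists, and the 3 nearest to the median profile. Marker lists for glia, fibroblasts and hair cells are given under other observations.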

Additional observations from a re-analysis of the deposited data

How the results depend on the processing

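Calls among the 9 tested genes were 0 in each direction under all alternatives run, including the fits without 1 library, which assume that the lone library varies like the other group. The lowest adjusted p-value of any of them was 0.0878, for Map1a without proliferating replicate 1. Of 130 alternative values, 113 kept their sign and 17 changed it; Map2, Dcx and Stmn1 kept theirs in all, but their sizes moved: to 0.18, 0.18 and 0.05 with library size alone, 0.046, 0.06 and 0.07 with log2(RPKM + 1) and 0.18, 0.28 and 0.075 with log2(RPKM + 0.1). Map1b changed to -0.26 with library size alone, -0.21 with log2(RPKM + 1), -0.22 with log2(RPKM + 0.1), -0.019 with the GC correction and replicate block, -0.22 without proliferating replicate 1 and -0.48 without neuron replicate 2. Library size alone moved the median of all genes to -0.27. RPKM was at most 0.413 for Map2 and 0.515 for Dcx, small beside the 1 added in log2(RPKM + 1). Stmn3 changed to -0.31 with the replicate block, -0.016 with the GC correction and replicate block, -0.17 with log2(RPKM + 1), -1.33 with log2(RPKM + 0.1) and -7.16 without neuron replicate 2, where neurons are at 0 and the value depends on the prior count. Mapt changed to 0.0073 without proliferating replicate 1 and 0.46 without neuron replicate 1, Dclk1 to 0.88 and 0.17 in the same fits. Without proliferating replicate 2, Map1a changed to 0.63 and Stmn2 to 2.50. With 1 library left out in turn, the lowest and highest values were 0.38 and 0.56 for Map2, 0.24 and 0.992 for Dcx, 0.038 and 0.58 for Stmn1, -2.80 and 0.46 for Mapt, -1.62 and 0.63 for Map1a, -0.48 and 0.40 for Map1b, -1.16 and 0.88 for Dclk1, -3.99 and 2.50 for Stmn2, and -7.16 and 1.89 for Stmn3. The median of the tested genes was -0.20 with the replicate block, and between -1.11 and 0.499 with 1 library left out, lowest without neuron replicate 2. Mapt did not pass the RPKM filter, and Mapt, Stmn2 and Stmn3 did not pass the mean count of 50. Over all genes, the count called higher and lower was 0 and 0 in the test without a block (438 at an unadjusted p-value under 0.05). It was 41 and 122 without a filter, 12 and 46 by DESeq2, 0 and 2 with library size alone, 0 and 4 with log2(RPKM + 1), 0 and 3 with the replicate block, and 23 and 71 with the GC correction and replicate block. Leaving out 1 library gave 3 to 33 higher and 11 to 90 lower. The cause was not tested. The replicate block changed no call of the 9 genes. Low counts limit Gap43, Stmn2, Stmn3 and Mapt most.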

Other observations

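Markers of other cell types were read beside the microtubule genes, as values only. The 8 glial markers summed to 67.4 and 61.6 CPM in proliferating replicates 1 and 2 and to 20.9 and 2.14 CPM in neuron replicates 1 and 2. Most of this came from Gfap, Fabp7 and Aqp4. The 6 fibroblast markers summed to 7.12 to 17.1 CPM, with Col1a2 and Dcn at 0 in all libraries. The 5 hair cell markers summed to 0.0839 to 9.66 CPM, with Pou4f3 and Otof at 0 in all libraries. The hair cell and proneural gene Atoh1 was counted 17 and 18 times in proliferating libraries, against 1 and 91 times in neuron libraries, so neuron replicate 1 was the lowest and neuron replicate 2 the highest library, as for Stmn3. The otic progenitor markers summed to 369.2 and 1195 CPM in the proliferating replicates and to 371.8 and 261.9 CPM in the neuron replicates. Of these, the intermediate filament gene Vim was counted 3154 and 6939 times in proliferating libraries, against 2800 and 1947 times in neuron libraries. Vim alone gave 936.6 of the 1195 CPM in proliferating replicate 2. Eya1, from the same list, went the other way, at 62 and 27 counts in proliferating libraries and 103 and 57 in neurons. Neither gene had overlapping groups in CPM, as for 14.5% of all tested genes with neurons lower and 12.9% with neurons higher. Of the 4 tested otic progenitor markers, neurons were higher for 3 among replicate 1 libraries, but for only 1 among replicate 2 libraries. The part of these cells in the values of the microtubule genes was not tested.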
